A study of Mus musculus with 12 samples.

Results

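Gene bodies with very many non-CG cytosine calls were examined in mouse cortex: 575 of the 23882 genes in the tables. A gene belonged to them when its mean number of non-CG calls over the 12 libraries was at least 150000, which stands in for great length because lengths were not used here. Symbols of 24 families (among them glutamate and GABA receptors, voltage-gated channels, cadherins, semaphorins, Eph receptors and collagens) were left out by the rule, which removed 87 further gene bodies of that depth. Of the members, 549 carry ordinary gene symbols and 26 the names of clones or gene models. The members were chosen by their number of calls in these same libraries, so their depth is a description. The methylation level, which is methylated calls over all calls, was not used by the rule.

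The series measured non-CG methylation (mCH) over genes by whole-genome bisulfite sequencing of C57BL/6 cortex, where an unmethylated cytosine is read as thymine and a methylated one stays a cytosine. At postnatal day 40 (P40) there were 4 wild-type (WT) libraries and 4 labelled miR29 knockout (KO). At 4 months there were 2 WT libraries and 2 labelled Dnmt3a mi5, a name kept as given, whose sample titles read DNMT3AmiR29MUT. The labels do not say which miR-29 genes were removed, in which cells, or whether each library is a separate animal, so a p-value here reflects only how much these libraries vary. Both WT groups share the strain and tissue of their mutants, and no marker of cortex can be read from a methylation table.

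In neurons mCH accumulates after birth and is laid down mainly by the DNA methyltransferase DNMT3A. Many of the longest mammalian genes encode neuronal proteins that work at synapses or in axons. The microRNAs of the miR-29 family are a known brake on DNMT3A. Their mature strands are shown because one mutant lacks miR-29 and the titles of the other name miR-29 together with DNMT3A. Capitals mark the seed, bases 2 to 8, and the sequences are those of RefSeq for GRCm38.p6.
mmu-miR-29a-3p: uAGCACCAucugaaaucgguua
mmu-miR-29b-3p: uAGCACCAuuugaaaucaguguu
mmu-miR-29c-3p: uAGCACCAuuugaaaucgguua
All 3 share the seed AGCACCA and differ only downstream of it.

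The members carried 27.3% to 30.2% of all non-CG calls of a library, that is 118300466 to 202334234 of 399563492 to 732985426 calls. Their median gene had 235190 to 282147 calls in the WT libraries at P40 and 162205 to 164511 in the Dnmt3a mi5 libraries. The fewest calls of any member in any library were 72380. At such depth counting error is small: Ptprd, with the most calls (a mean of 1344410), had a level of 1.006% in WT replicate 1 at P40 with a 95% Wilson interval of 0.991 to 1.02. These intervals cover counting error only.

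The members were more methylated than gene bodies of few calls in each of the 12 libraries. Their mean level in WT at P40 was 1.66%, 2.01%, 1.88% and 1.67% in replicates 1 to 4 (1.80% ± 0.17, SD, n = 4), against 1.31% ± 0.117 for the 6394 tested gene bodies of 5000 to 15000 calls. In the miR29 KO it was 3.22%, 2.98%, 2.82% and 2.26% (2.82% ± 0.405), so replicate 4 stood lowest but above the highest WT library. At 4 months the members had 1.71% and 1.72% in WT and 3.08% and 3.03% in Dnmt3a mi5. The ratio of the members to the few-call genes lay between 1.36 and 1.39 in the 12 libraries, with group means of 1.37 ± 0.0085, 1.38 ± 0.00839, 1.37 ± 0.00792 and 1.39 ± 0.00593 in the order WT and KO at P40, WT and Dnmt3a mi5 at 4 months. The levels were higher in each mutant in both classes, while the ratio between the classes stayed in that narrow range.

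**Figure D1:**
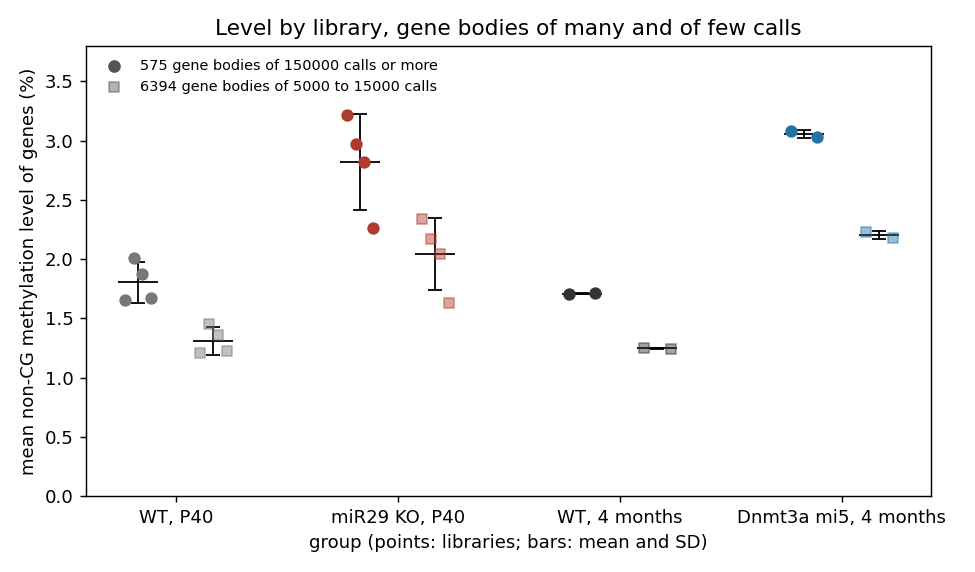
Mean non-CG methylation level (%, vertical axis) per library in the 4 groups, for the 575 gene bodies of 150000 calls or more (circles) and the 6394 of 5000 to 15000 calls (squares), with group mean and SD as bars. The circles run from 1.66% to 3.22% and each lies above the square of its own library, and the mutant circles lie above those of the WT group of the same age.

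The level did not keep climbing with calls. Over all symbols, the median WT level at P40 was 1.03% for genes of 500 to 5000 calls, 1.22% for 5000 to 15000, 1.41% for 15000 to 50000 and 1.71% for 50000 to 150000. Above the threshold it was 1.78%, then 1.73% from 300000 and 1.73% from 600000 calls. The members were also more alike: the upper quartile of their WT levels at P40 was 1.64 times the lower, against 2.65 times in the few-call genes. The counting error of a level in 1 library, on the log2 scale, also differed, with a median of 0.132 in few-call genes and 0.021 in members that are not X-like, a group described further on. Its part in the wider range was not tested.

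**Figure D2:**
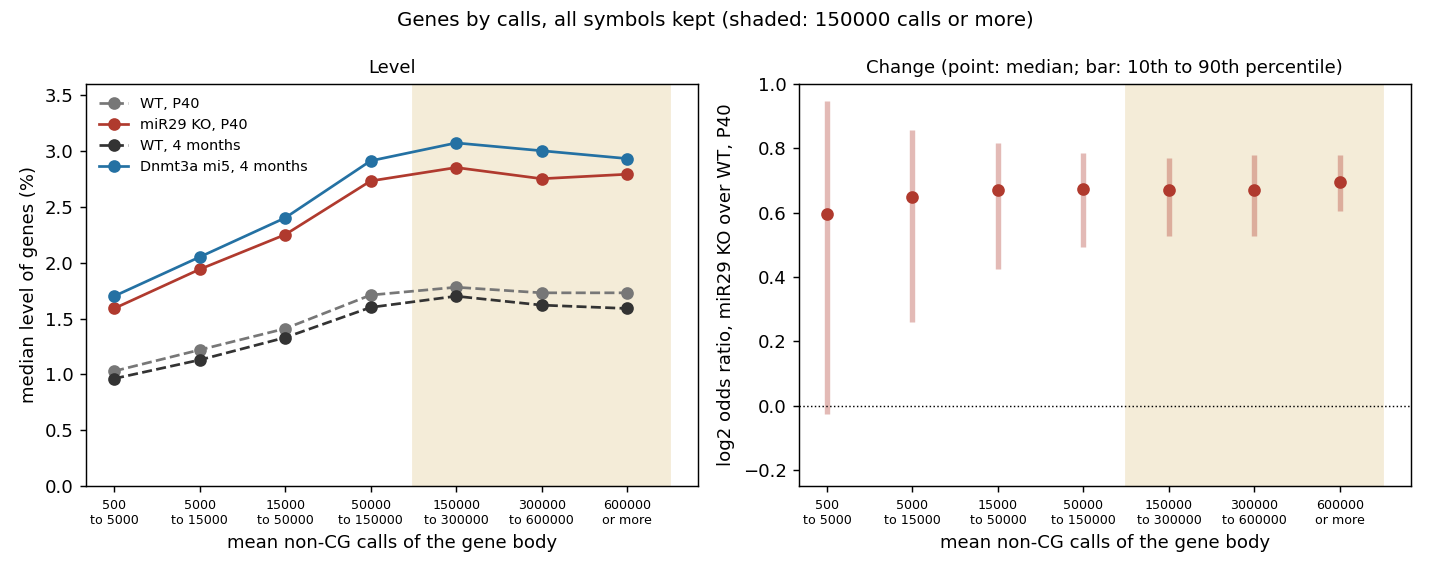
Left, median level (%) of genes binned by mean non-CG calls in each of the 4 groups; right, the log2 odds ratio of miR29 KO over WT at P40, as the median and the 10th to 90th percentile of each bin. Levels flatten at about 1.7% in WT past 50000 calls, and the spread of the change narrows from -0.03 to 0.95 in the lowest bin to 0.61 to 0.78 in the highest.

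Just inside the threshold lay Ppm1h (150119 calls, a level of 1.44% in WT at P40), Uvrag (1.71%) and Shank2 (0.865%), and just outside it Dnah5 (149761 calls, 2.20%), Ncoa2 (1.45%) and Rgl1 (2.08%).

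The order of the members by level was nearly the same in every library. Over the 560 members outside the X-like group described below, Spearman's rho between 2 libraries was 0.949 to 0.995 (66 pairs, a description across genes that share each library's depth). The highest levels in WT at P40 were those of Sox6, a transcription factor of interneuron and oligodendrocyte development (3.83% ± 0.305), Zfp521, a zinc finger transcription factor (3.64% ± 0.479), Mad1l1, a spindle checkpoint protein (3.48% ± 0.345), Frmd4b (3.46% ± 0.382) and Prdm16, a chromatin regulator of neural progenitors (3.30% ± 0.335, n = 4 each). Their ranges over the 4 libraries overlap one another. Sox6 was also highest at 4 months, with 4.08% and 4.12% in WT and 6.45% and 5.98% in Dnmt3a mi5. The lowest named levels belonged to Skint5 (0.41% ± 0.029) and Skint6 (0.464% ± 0.0238), relatives of a thymic selection protein of T cells, to Zfp982 (0.513% ± 0.0181), to Sp140, an immune nuclear body protein (0.552% ± 0.0465), and to Atp2b2, a plasma membrane calcium pump of neurons (0.604% ± 0.0553).

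The first comparison asks how the members differ between miR29 KO and WT cortex at P40. Of the 575 members, 562 rose and none fell (quasi-binomial logistic model per gene, dispersion moderated with limma, Benjamini-Hochberg adjusted p under 0.05 over 19826 genes), that is 97.7%, where 76.5% of all tested genes rose. All 87 gene bodies of that depth left out by the rule rose too (100%). The members also have more calls than other genes, and the part of depth in the higher share was not tested. The size of the change was close to that of other genes. Median log2 odds ratios were 0.67 for the members, 0.65 for the few-call genes and 0.65 for all genes, and the KO to WT ratio of mean levels was 1.56 in both classes. In absolute terms the members were 1.015 percentage points higher and the few-call genes 0.732 points higher.

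Members varied less around that change than few-call genes did, with quartiles of 0.61 and 0.73 against 0.48 and 0.76. Counting error was also smaller in members, with a log2 median in WT at P40 of 0.021 against 0.132, X-like genes aside. Its part in this spread and in the counts below was not tested. Every KO library lay above every WT library in 536 members (93.2%), where the share among all tested genes was 57.1%. Among the 87 gene bodies of that depth left out by the rule it was 94.3%. Every KO library lay below every WT library in no member (0.0504% of all tested genes). Leaving out each P40 library in turn gave 548 to 560 members that rose, the lowest without WT replicate 2, where 69.9% to 80.7% of all genes rose. Without KO replicate 4, the lowest KO library, 558 rose.

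The 8 members with the most calls show the pattern gene by gene. Ptprd, a receptor phosphatase that organises synapses, had 1.006%, 1.226%, 1.12% and 1.015% in WT and 1.971%, 1.77%, 1.70% and 1.29% in KO (log2 odds ratio 0.64 ± 0.147 SE, adjusted p = 0.000714). Lrp1b, a lipoprotein receptor relative, had 1.41%, 1.72%, 1.64% and 1.36% in WT and 2.85%, 2.68%, 2.53% and 1.93% in KO (0.73 ± 0.131, adjusted p = 9.67e-05). In both genes the lowest KO library stood above the highest WT library, by a small margin in Ptprd. Macrod2, which removes ADP-ribose from proteins, went from a mean of 1.96% to 3.24%. Csmd1, a large membrane protein with complement-control domains, went from 1.12% to 1.63%, the smallest of the 8 changes (0.57 ± 0.14). Fhit, a nucleotide hydrolase at a common fragile site, went from 2.52% to 3.96%, and Rbfox1, a neuronal splicing factor, from 1.51% to 2.31%. Ctnna3, an alpha-catenin of cell junctions, went from 1.848% to 2.999%, and Magi2, a synaptic scaffold protein, from 1.34% to 2.14%. All 8 rose, with KO and WT libraries apart.

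The largest changes at P40 were in Ncam1, Ptprk, Klhl1 and Plppr1. Ncam1, the neural cell adhesion molecule, had 0.98%, 1.24%, 1.16% and 1.08% in WT and 2.53%, 2.35%, 2.26% and 1.76% in KO (log2 odds ratio 1.03 ± 0.14 SE, adjusted p = 5.71e-05). Ptprk, a receptor phosphatase of cell contacts, had 1.48%, 1.83%, 1.69% and 1.43% in WT and 3.45%, 3.16%, 3.03% and 2.25% in KO (0.92 ± 0.134). Klhl1, a kelch protein of neurons, went from 1.39% to 2.56% (0.92 ± 0.147), and Plppr1, a membrane protein of growing neurites, from 2.0% to 3.67% (0.91 ± 0.128). In each of these genes the lowest KO library exceeded the highest WT library.

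The members that did not pass at P40 numbered 13. They include Sfi1, Zfp982, Skint5, Skint6, Sp140, Atp2b2, Syt1 and Slc24a2, and 5 with clone or model names. Sfi1, a centrosome protein, had 0.614%, 0.652%, 0.576% and 0.653% in WT and 0.64%, 0.619%, 0.618% and 0.601% in KO (log2 odds ratio -0.01 ± 0.171, adjusted p = 0.958), so the groups overlapped throughout. Skint5 had 0.421%, 0.445%, 0.377% and 0.399% in WT and 0.403%, 0.593%, 0.398% and 0.377% in KO (0.09 ± 0.231). Its replicate 2 in KO stood apart from the other libraries of both groups.

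With a bound of 0.15 on the absolute log2 odds ratio, chosen after the values were seen, 5 members were flat in both mutants: Sfi1, Zfp982, Skint5, Skint6 and 1 gene model. Their library levels were 0.332% to 0.653%. The 1st percentile of all genes was 0.219% to 0.287%, and that of the few-call genes 0.291% to 0.382%, which overlaps the levels of these members. These bodies were low in mCH, and whether they lie at the floor of the tables was not tested. Whether calls in sequence with close copies elsewhere entered these values was not tested. The models Gm37013, Gm38666 and Gm38667 had mean calls within 5% of each other and may count the same calls.

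Sp140, Atp2b2, Syt1 and Slc24a2 also did not pass. Sp140 had 0.556%, 0.582%, 0.485% and 0.585% in WT and 0.599%, 0.617%, 0.552% and 0.504% in KO, with overlap (log2 odds ratio 0.04 ± 0.188). Atp2b2 had 0.567%, 0.649%, 0.546% and 0.653% in WT and 0.83%, 0.766%, 0.777% and 0.635% in KO, where replicate 4 lay below the highest WT library (0.32 ± 0.172, adjusted p = 0.0934). Atp2b2 passed without KO replicate 4 (adjusted p = 0.00653) and with moderation that used no trend (adjusted p = 0.0053, both by the quasi-binomial model with limma), so its call depends on these choices. Syt1, the calcium sensor of transmitter release, had 0.765%, 0.753%, 0.646% and 0.701% in WT and 0.966%, 0.90%, 0.888% and 0.793% in KO (0.31 ± 0.165, adjusted p = 0.0927), with the groups apart. Slc24a2, a sodium, calcium and potassium exchanger, is the exception among these by level: it had 1.18%, 1.48%, 1.24% and 1.24% in WT and 1.67%, 1.67%, 1.51% and 1.19% in KO (0.24 ± 0.138, adjusted p = 0.115). Its KO replicate 4 fell among the WT libraries.

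The second comparison asks the same of Dnmt3a mi5 and WT cortex at 4 months. Here 551 of the 575 members rose and none fell by the same test, that is 95.8%, where 58.8% of all tested genes rose. Of the 87 gene bodies of that depth left out by the rule, 98.9% rose. Median log2 odds ratios were 0.86 for the members, 0.81 for the few-call genes and 0.83 for all genes. The mutant to WT ratio of mean levels was 1.79 in the members and 1.77 in the few-call genes. The part of depth in the higher share was not tested here either. Both Dnmt3a mi5 libraries lay above both WT libraries in 571 members (99.3%), where the share was 86.2% among all tested genes and 100% among those 87. The reverse held for no member (1.03% of all tested genes). With 2 libraries a group the count depends on each of them: it was 392 without WT replicate 1, 473 without WT replicate 2, 499 without Dnmt3a mi5 replicate 1 and 519 without its replicate 2, where the share of all genes was 23.6%, 31.8%, 38.9% and 43%.

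The largest changes at 4 months were in Exoc6b, Slc8a1, Ncam1 and AW554918. Exoc6b, a subunit of the exocyst that tethers vesicles to the membrane, had 1.30% and 1.26% in WT and 2.77% and 2.66% in Dnmt3a mi5 (log2 odds ratio 1.10 ± 0.233 SE, adjusted p = 0.003). Slc8a1, a sodium and calcium exchanger, had 1.30% and 1.25% in WT and 2.68% and 2.66% in the mutant (1.08 ± 0.225). Ncam1 had 1.03% and 1.08% in WT and 2.25% and 2.15% in the mutant (1.08 ± 0.237), so it was among the 4 largest changes of both comparisons. AW554918 had 1.38% and 1.36% against 2.82% and 2.83% (1.06 ± 0.245). Of the 8 genes with the most calls, Ptprd went from 1.07% and 1.07% to 2.10% and 1.97%, and Lrp1b from 1.42% and 1.45% to 2.74% and 2.65%.

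At 4 months 24 members did not pass, 11 of them among the 15 X-like genes described below. Atp2b2 had 0.734% and 0.716% in WT and 1.042% and 1.004% in the mutant (0.50 ± 0.297, adjusted p = 0.149). Atp2b2 passed at 4 months in 5 other settings, with an adjusted p by limma or the quasi-binomial model of 1.57e-05 with the 4-month libraries alone to 0.0474 with limma on log2(percent + 0.5). Sfi1 had 0.604% and 0.622% against 0.652% and 0.61%. Syt1 (0.767% and 0.784% against 1.26% and 1.09%, adjusted p = 0.0357) and Slc24a2 (1.23% and 1.28% against 2.20% and 2.12%, adjusted p = 0.00669) rose here, and they are the 2 members that passed at 4 months and not at P40. In all, 11 members passed in neither comparison.

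**Figure D3:**
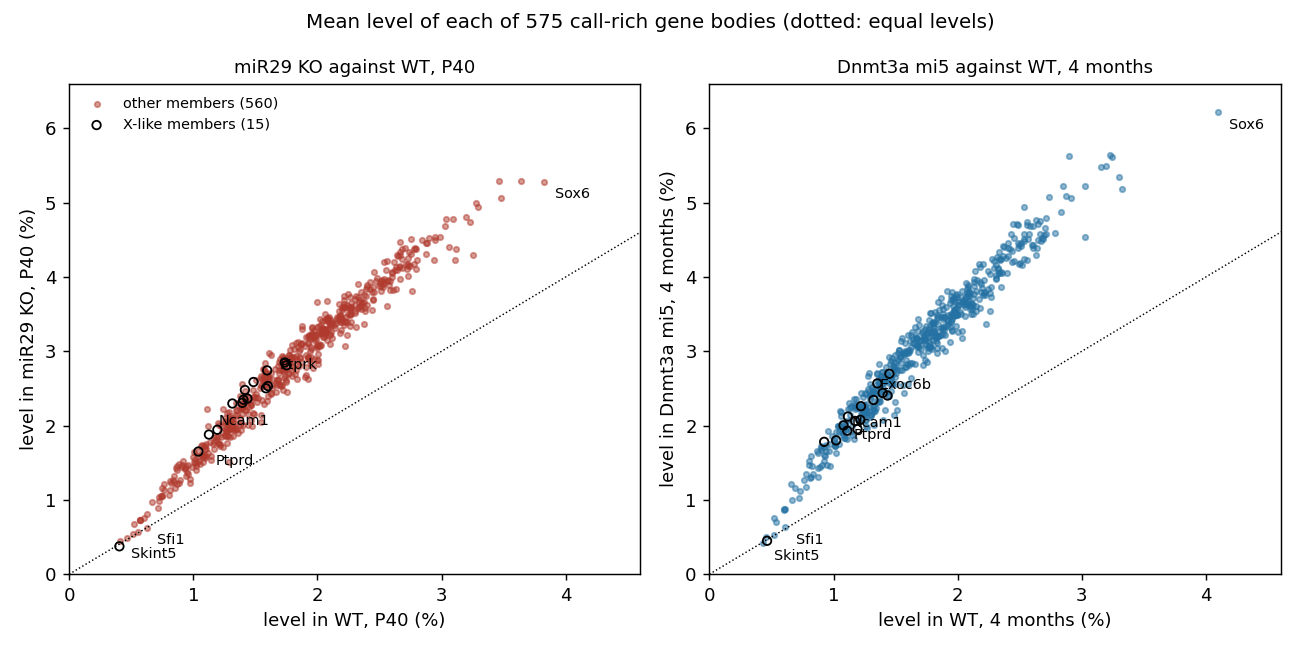
Mean level (%) of each of the 575 members in the mutant (vertical axis) against the WT group of the same age (horizontal axis), left for miR29 KO at P40 and right for Dnmt3a mi5 at 4 months, with X-like members as open circles and equal levels as a dotted line. Points lie above the line except near its lower end, where Skint5 (0.41% in WT at P40) and Sfi1 (0.623%) sit on or close to it.

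The difference between the 2 mutants was tested directly. No member passed with the quasi-binomial model (1 of 575 at an unadjusted p under 0.05) or with limma on log2(percent + 0.1) (1 of 575), and 0.0% of all tested genes passed. The median difference in log2 odds ratio over members, Dnmt3a mi5 less miR29 KO, was 0.19, with a median SE of 0.243. It was above 0 in 569 of the 575 members, and its median over all tested genes was 0.18. The mutants also differ in age and in set of libraries, which cannot be told apart from genotype here. Slc24a2, chosen here after its values were seen, had a difference of 0.56 ± 0.263 (adjusted p = 0.998). The 2 comparisons share no library. Over the 560 members that are not X-like, their log2 odds ratios correlated with Pearson's r of 0.73 and Spearman's rho of 0.57. Over the 511 of these with a WT level of at least 1% at P40 the values were 0.58 and 0.55. These are descriptions across genes, which are not independent replicates and share the libraries' depth.

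WT cortex at 4 months was set against WT cortex at P40. The ages come from separate sets of libraries, so age and set cannot be told apart. No member passed with the quasi-binomial model (none at an unadjusted p under 0.05 either) or with limma on log2(percent + 0.1), and 0.131% of all genes did. The mean level of the members was 0.948 of its P40 value. That of all tested genes and that of the few-call genes were each 0.95 of theirs. In the 87 gene bodies left out by the rule it was 0.947. Lrp1b, for example, had a mean of 1.53% at P40 and 1.43% at 4 months, and Fhit 2.52% and 2.32%, neither past the threshold.

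The members were then described by what their proteins do, with lists chosen when earlier results of these data were known. Their counts are read beside the shares of all 575 members that rose, 97.7% at P40 and 95.8% at 4 months, and of all tested genes, 76.5% and 58.8%. Their medians are read beside those of all genes, 0.65 at P40 and 0.83 at 4 months. A list in which every member rose is therefore near the share of the members as a whole, and no difference between lists was tested.

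Cell adhesion and synapse-organising proteins form the largest list, with 35 members. All 35 rose at P40 and 33 at 4 months, with median log2 odds ratios of 0.67 and 0.88 and a median WT level at P40 of 1.52%. Their levels in WT at P40 ran from 0.913% in Adgrb3, an adhesion receptor of synapses, to 2.78% in Sdk1, a sidekick protein that matches synaptic partners. Ncam1 had the smallest p of the list.

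Of receptor phosphatases, receptor kinases and their ligands, 16 of 16 rose at P40 and 15 at 4 months (medians 0.68 and 0.86). The lowest level was that of Ntrk2, the BDNF receptor (0.741%), and the highest that of Ror1, an orphan receptor of the Wnt pathway (2.88%). Ptprd and Ptprk are given above.

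Transcription factors and chromatin proteins had a median level of 2.20% in WT at P40, the highest of the 11 lists, with a range from 0.841% in Myt1l, a repressor of non-neuronal genes, to 3.83% in Sox6. All 30 rose in both comparisons, with medians of 0.62 and 0.82. Hdac9, a class II histone deacetylase and the member of this list with the most calls, went from 1.78% to 2.93% at P40 and from 1.80% to 3.40% at 4 months. Npas3, a bHLH-PAS factor, went from 2.79% to 4.37% and from 2.65% to 4.49%.

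RNA-binding and splicing proteins were 7, and all 7 rose in both comparisons (medians 0.64 and 0.76). Rbfox3, the neuronal nuclear antigen NeuN, had the lowest level of the list (0.823%) and Msi2, a Musashi protein of progenitors, the highest (3.25%). Rbms3, a binder of single-stranded nucleic acid, went from 2.53% to 3.90% at P40 and from 2.31% to 3.97% at 4 months.

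Enzymes of cyclic nucleotide, lipid and kinase signalling had 23 members, of which 23 rose in both comparisons (medians 0.59 and 0.80). Pde4d, a cyclic AMP phosphodiesterase, went from 1.78% to 2.86% at P40 and from 1.73% to 3.22% at 4 months. Itpr2, a calcium release channel of the endoplasmic reticulum, went from 2.73% to 4.26% and from 2.71% to 4.80%. The range in WT at P40 was from 0.75% in Dclk1, a microtubule-associated kinase, to 3.12% in Plcb4, a phospholipase C.

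Cytoskeletal, junction and scaffold proteins had 32 members, of which 32 rose at P40 and 30 at 4 months (medians 0.66 and 0.86). Ank3, the ankyrin of the axon initial segment, had 0.749% in WT at P40 and Pard3, a polarity protein, 3.03%. Syne2, a nuclear envelope protein, went from 2.33% to 3.90% at P40 and from 2.28% to 4.25% at 4 months.

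Among ion channels, their partners and transporters outside the families left out, 16 of 18 rose at P40 and 17 at 4 months (medians 0.67 and 0.94). The 2 that did not pass at P40 were Atp2b2 and Slc24a2. Asic2, an acid-sensing channel, had 1.78%, 2.24%, 2.08% and 1.90% in WT at P40 and 3.77%, 3.57%, 3.22% and 2.72% in KO (log2 odds ratio 0.76 ± 0.114 SE, adjusted p = 5.71e-05), with the groups apart. It had 1.90% and 2.02% in WT at 4 months and 3.86% and 3.75% in Dnmt3a mi5.

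Of vesicle release and membrane traffic proteins, 14 of 15 rose at P40, all but Syt1, and 15 at 4 months (medians 0.65 and 0.88). Erc2, a protein of the presynaptic active zone, went from 1.30% to 2.09% at P40 and from 1.22% to 2.16% at 4 months. Syn3, a synapsin, went from 2.08% to 3.68% and from 2.08% to 3.79%.

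The last 3 lists were chosen for work outside neurons or for chromosomal fragility, and the glial list shares members such as Npas3 and Gpc5 with the lists above. Genes of common fragile sites rose in 10 of 10 members in both comparisons (medians 0.74 and 0.93), among them Wwox, an oxidoreductase with WW domains, which had the highest level of that list (3.23%), and Dpyd, which breaks down pyrimidines (2.04% to 3.41% at P40 and 1.86% to 3.31% at 4 months). Genes used mainly in other organs rose in 10 of 10 members in both comparisons (medians 0.71 and 0.82). Pkhd1, a protein of renal cilia, went from 1.44% to 2.31% at P40 and Hydin, a protein of motile cilia, from 1.84% to 3.12%. Genes best known from glia and vessels rose in 7 of 7 members in both comparisons (medians 0.62 and 0.80), and Gpc5, a glypican, went from 1.80% to 3.08% at P40. The tables hold DNA of the whole cortex, so a change in every cell of a type and a change in the share of that type cannot be told apart.

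Changes that differ from the change common to all genes were examined next. The median log2 odds ratio of all genes was 0.65 at P40, 0.83 at 4 months and -0.08 with age. A planned analysis used limma on log2(percent + 0.1) with the median gene of each library subtracted. It called no member at P40 (110 of 575 at an unadjusted p under 0.05) and none at 4 months (53 of 575). For age it called 6 members above (1.04%), where 0.898% of all genes were above. After these counts were seen, the quasi-binomial model was run with the median logit of each library as an offset, which keeps the depth of each gene. It called 29 members above the common shift at P40, that is 5.04%, where 1.04% of all genes lay above. It called 64 members below it, that is 11.1%, where 3.62% of all genes lay below. Of the 87 gene bodies of that depth left out by the rule, 10.3% lay above and 11.5% below. Of the few-call genes 0.422% lay above and 2.44% below. Members differ from other genes here in depth too, which was not separated from the counts. The offset removed a shift of 0.686 at P40, 0.869 at 4 months and -0.097 with age. In this model the median of all genes was therefore -0.033, -0.044 and 0.016 rather than 0. What this does to the counts above and below was not tested.

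Ncam1 led the 29 (relative log2 odds ratio 0.34 ± 0.039 SE, adjusted p = 6.02e-05), with Ptprk (0.23 ± 0.031, adjusted p = 0.000239), Plppr1 (0.23 ± 0.034, adjusted p = 0.000599), Syn3 (0.17 ± 0.032, adjusted p = 0.00316) and Klhl1 (0.23 ± 0.044, adjusted p = 0.00436) among those of smallest p. The number above depended on single libraries: it was 12 without KO replicate 1, 13 without WT replicate 1, 15 without WT replicate 4, 15 without KO replicate 3, and 40 without KO replicate 4, where 0.409%, 0.343%, 0.489%, 0.61% and 1.31% of all genes lay above. In every such fit 12 were called: Frmd4a, Gpc5, Klhl1, Myo16, Ncam1, Pappa2, Plppr1, Plxdc2, Ptprk, Sh3rf3, Slco3a1 and Syn3. Without any 1 of the 4-month libraries, which share the fit and so its overdispersion, 23 or 24 were called. The 4-month comparison gave the 29 a median relative log2 odds ratio of 0.11, above 0 in 27 and below it in 2.

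The 64 below the shift had a median WT level at P40 of 1.29%, against 1.79% for all members, and ranged from 0.405% to 3.83%. They include the 5 flat genes of low level and some genes of high level. Slc24a2 had the smallest p (-0.44 ± 0.045, adjusted p = 2.57e-05), followed by Sox6 (-0.19 ± 0.024, adjusted p = 0.000125), the gene with the highest level. Rora, a retinoid-related orphan receptor (2.76% in WT and 3.81% in KO at P40), Cux1, a factor of upper-layer neurons (3.11% and 4.22%), Msi2 (3.25% and 4.30%) and Plcb4 (3.12% and 4.38%) all rose while remaining below the shift, with relative values of -0.20, -0.22, -0.26 and -0.17. By list, the members below were 8 of 30 transcription factors and chromatin proteins, 6 of 23 signalling enzymes, 4 of 35 adhesion proteins, 4 of 32 cytoskeletal proteins, 2 of 18 channels and transporters, 2 of 15 vesicle proteins, 2 of 7 RNA-binding proteins, 1 of 10 fragile-site genes, 1 of 7 glial genes, 0 of 16 receptors and 0 of 10 genes of other organs. Those above were 3 adhesion proteins, 3 channels and transporters, 3 fragile-site genes, 1 receptor, 1 vesicle protein and 1 glial gene, with 0 in the other 5 lists. Differences between lists were not tested. The number below was 35 without KO replicate 1, 38 without KO replicate 2 and 98 without KO replicate 4, where 1.21%, 1.72% and 4.7% of all genes lay below, and 33 members were called in every fit, among them Slc24a2, Sox6, Rora, Cux1, Msi2, Plcb4, Nfia, Dscam, Tenm4, Mapk10, Atp2b2 and Sfi1. At 4 months the 64 had a median relative value of -0.14, below 0 in 58.

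**Figure D4:**
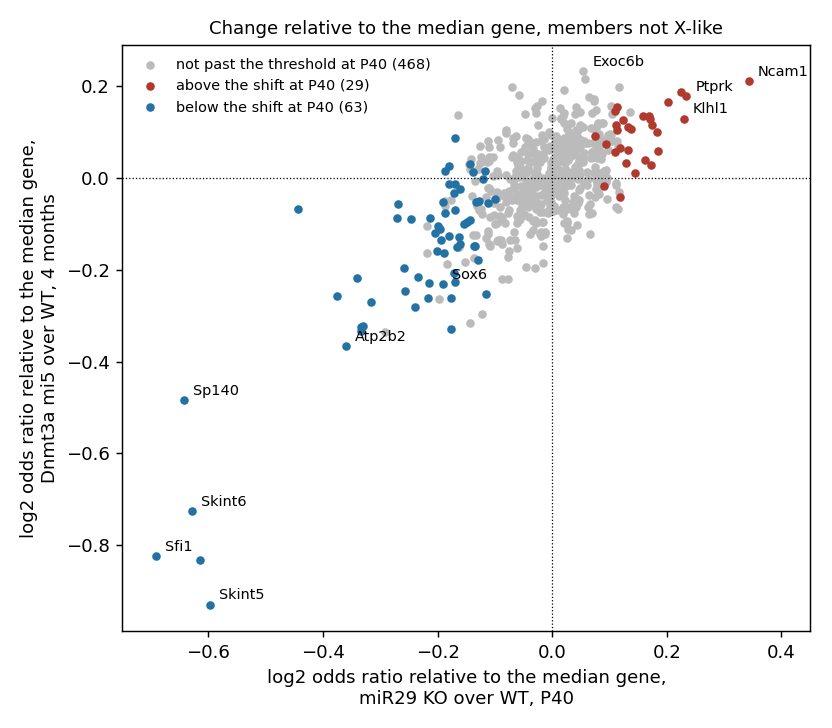
Log2 odds ratio relative to the median logit of each library (the median gene in the axis labels) for the 560 members that are not X-like. The horizontal axis is miR29 KO over WT at P40 and the vertical axis Dnmt3a mi5 over WT at 4 months. Colours give the call at P40. The 29 members above the shift at P40 lie mostly above 0 at 4 months, and Sfi1, Skint5 and Skint6 lie far below 0 on both axes.

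At 4 months the same model called no member above the shift (0.0% of all genes, 106 of 575 members at an unadjusted p under 0.05 in either direction) and 1 below, Sox6 (-0.23 ± 0.035, adjusted p = 0.0201), where 0.0353% of all genes lay below. That call was lost without WT replicate 1, without WT replicate 2 and without Dnmt3a mi5 replicate 2.

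Between the ages, the offset model called 28 members above the common shift in WT, that is 4.87%, where 1.4% of all genes lay above. It called 3 below, that is 0.522%, where 0.141% of all genes lay below. Among the 87 gene bodies of that depth left out by the rule, 6.9% lay above and 1.15% below. Trio, a guanine nucleotide exchange factor of growing axons, had 1.09%, 1.15%, 1.11% and 0.969% at P40 and 1.46% and 1.34% at 4 months (relative log2 odds ratio 0.47 ± 0.074, adjusted p = 0.000695), with the ages apart. Hivep3, a zinc finger factor (1.23% and 1.53%, 0.42), Opcml, an adhesion molecule (1.31% and 1.54%, 0.33), Ntrk2 (0.741% and 0.876%, 0.34) and Sox6 (3.83% and 4.10%, 0.20) were also above. The 3 below were Cpq, Tmem117 and Cpne4. Without WT replicate 3 of P40 17 were called above, where 0.933% of all genes were. Leaving out either WT library of 4 months leaves 1 library in that group, and fewer members were then called above. Only Hivep3, Opcml and Tmem108 were called in every fit without 1 library. The planned centred analysis called 6: Arhgap26, D430041D05Rik, Hivep3, Opcml, Tmem108 and Trio. That is 1.04% of the members, near the share of all genes: 178 of 19826 (0.898%) were above and 56 below.

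In 4 of the 12 libraries the Y-linked genes Eif2s3y, Kdm5d and Ddx3y had few calls (1.01 to 2.03 per 1000000 calls, against 40.5 to 47.8 in the other 8). They are WT replicate 2 and KO replicate 3 at P40, and WT replicate 2 and Dnmt3a mi5 replicate 1 at 4 months, so 1 in each group. Genes covered 1.5 to 2.7 times as deeply in these 4 as in the other 8 are called X-like, and 15 members are: Dmd, Il1rapl1, Il1rapl2, Frmpd4, Diaph2, Tenm1, Fgf13, Arhgap6, Aff2, Mid1, Dach2, Mageb18, Rtl4, Eda and 1 gene model. Their coverage ratio was 1.57 to 2.11, while that of the other 560 members was 0.81 to 1.13. X-like is a name for this coverage pattern, since positions were not used here.

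The X-like members had a far lower level in the 4 libraries of low Y-gene coverage. Their mean level over that of the other members was 0.545, 0.524, 0.53 and 0.505 in these libraries and 0.819 to 0.897 in the other 8, without overlap. Dmd, the dystrophin gene, had 1.24%, 0.958%, 1.38% and 1.20% in WT at P40 and 2.48%, 2.30%, 1.33% and 1.66% in KO, so KO replicate 3 lay below the highest WT library. At 4 months Dmd had 1.29% and 0.87% in WT and 1.55% and 2.46% in Dnmt3a mi5. The low library of each group was the lowest for 13 of the 15 members in all 4 groups. Among the other 560 members it was the lowest in all 4 groups for none. X-like few-call genes had ratios of 0.604 to 0.727 in the low libraries and 0.97 to 1.04 in the others.

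**Figure D5:**
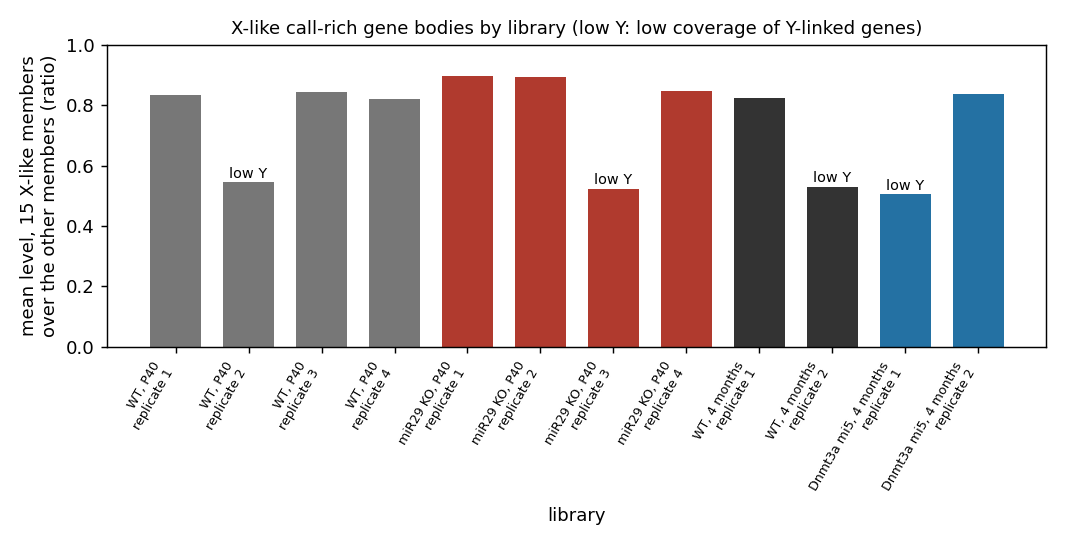
Mean level of the 15 X-like members divided by that of the other 560 members (vertical axis, from 0) in each of the 12 libraries. The 4 libraries marked low Y lie between 0.505 and 0.545, the other 8 between 0.819 and 0.897.

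This spread bears on the tests of these genes. Their median overdispersion, the variance between libraries over that of counting alone, was 405, against 81.9 in the other members. Of the 15, 14 rose at P40 and 4 at 4 months. With low Y-gene coverage as a term of the model, added after the data were seen, 14 rose at P40 and 14 at 4 months, with median log2 odds ratios of 0.70 and 0.82. Every KO library lay above every WT library in 2 of the 15 (13.3%), against 534 of the other 560. The share was 12.3% in the 211 X-like few-call genes and 57.1% in all tested genes. Within the low libraries alone the KO to WT ratio of mean levels at P40 was 1.35 in X-like and 1.40 in other members. In the other libraries it was 1.72 and 1.62. At 4 months the ratios were 1.71 and 1.80 in the low libraries and 1.80 and 1.78 in the others. Each of these low-library ratios compares 1 library with 1, as do the 4-month ratios in the other libraries, so they carry no test. Without the X-like genes 548 of 560 members rose at P40 and 547 at 4 months. In the 8 libraries of high Y-gene coverage 538 of the 575 members rose at P40, where 67.7% of all genes did. None rose at 4 months (394 of 575 at an unadjusted p under 0.05), where 0.00504% of all genes did, 1 library stood against 1 and its spread was taken from the P40 groups.

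Members of low WT level had somewhat lower log2 odds ratios, which is given as a description with no test. Members not X-like were ranked into 5 bins of 112 by the WT group of the other age, so that no library was used on both sides. The median log2 odds ratio at P40 was 0.60 in the bin of lowest level and 0.70, 0.71, 0.69 and 0.66 in the next 4. At 4 months it was 0.82 in the lowest bin and 0.90, 0.90, 0.87 and 0.85 in the next 4. The lowest bin held 100 of 112 members that rose at P40 and 99 of 112 at 4 months, while 112 of 112 rose in each other bin. In few-call genes the lowest bin at P40 had a median of 0.35 and the middle bin 0.69.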

How the data were processed

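For each RefSeq transcript the tables the authors deposited hold, per library, a count of methylated calls at non-CG cytosines and a total, treated as an expected count because only 35.7% to 62.2% of totals are whole, with a derivation not given in the sources used here. Values that were not whole were rounded. Reads were processed with BSMAP on mm9, per the submitters' processing notes, which give no version. Of 36672 entries per table, 300 without a symbol in RefSeq's GRCm38.p6 list (used for names only) and 1395 with any of 410 repeated identifiers were left out. Where a gene had several transcripts, that with the most calls was used. Genes with at least 500 calls in every library were tested (19826, the 575 members among them).

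The quasi-binomial model had 1 mean per group over all 12 libraries, with overdispersion moderated by limma 3.58.1 (squeezeVar, trend, robust) in R 4.3.3. It follows an earlier description of these data, and its guard against zero counts was set to match the counts given there. It was tested on simulated data in which each gene varied independently. No shift common to a library was simulated, so that test cannot speak to the counts of genes that rose. Tables and plots used numpy 2.4.6, scipy 1.17.1, pandas 2.3.3 and matplotlib 3.10.9 in Python 3.11.15. Alternatives were limma on log2 and percent scales, other minimums, thresholds and comparison genes, subtraction of the 1st percentile, a replicate block and each library left out.

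The members, lists and the rule for named genes were chosen with earlier results of these data known. The rule took the 8 members with the most calls, the 5 highest and 5 lowest WT levels at P40, the 4 largest and 4 smallest changes per mutant, the 3 smallest p in each direction between mutants and ages among those past the threshold (none were), each list's member with the most calls and with the smallest p, and the 3 genes on each side of the call threshold. Clones and gene models were counted only. Any other gene (a list's extremes, genes off the common shift, X-like genes, Syt1, Slc24a2) was picked with its values in view. The offset model, its fits without 1 library and the handling of Y-gene coverage came after the data were seen.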

Additional observations from a re-analysis of the deposited data

Results flagged for a closer look

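Among 90 groups of 4 library values that were checked, 3 held a library farther from the others than Dixon's 95% limit for the gap over the range allows. Chance alone gives about 1 in 20 groups. Skint5 was at 0.593% in miR29 KO replicate 2 at P40, with the other 3 libraries at 0.377% to 0.403%. The ratio of X-like to other members was 0.545 in WT replicate 2 at P40 and 0.524 in miR29 KO replicate 3, both libraries of low Y-gene coverage.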

How the results depend on the processing

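The settings were limma on 3 scales, other call minimums, plain moderation, subtraction of the 1st percentile, libraries of 1 age, a Y-gene term, the replicate block and each P40 library left out. Across them 548 to 567 members rose at P40, where 67.0% to 84.5% of all genes did. At 4 months 543 to 560 rose, where 48.6% to 73.6% of all genes did. Leaving out a 4-month library leaves 1 in its group, and fewer members then rose at 4 months. With the 8 libraries of high Y-gene coverage 538 rose at P40 and none at 4 months (0.0%). Asked relative to the median gene of each library, the share of members above was 0.0% (centred limma) and 5.04% (offset model) at P40. It was 0.0% and 0.0% at 4 months, and 1.04% and 4.87% for age. Of all genes, 0.0% and 1.04% were above at P40, and 0.898% and 1.4% for age. Counted in either direction, the offset model called 5.39% of the members for age, where 277 of 19826 genes lay above and 28 below. Replicate numbers shared by the groups were not taken as pairs. Across genes, deviations from the group mean correlated at -0.011, -0.04, -0.054 and 0.109 in same-numbered P40 libraries. In P40 libraries of different number they correlated at -0.136 to 0.206, so no pairing shows, though it is not excluded. At 4 months 2 libraries a group force every value to 0.089 or -0.089, which cannot tell of pairing. With the replicate block 553 members rose at P40 and 549 at 4 months, where 76.6% and 62.3% of all genes did, and none differed between mutants.

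In the offset model without 1 library, members above the shift numbered 12 to 40 at P40 and 7 to 31 for age, and those below 35 to 98 at P40, 0 to 5 at 4 months and 0 to 3 for age.

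In the order WT and KO at P40, WT and Dnmt3a mi5 at 4 months, the ratio of members to few-call genes was 1.357, 1.365, 1.351 and 1.372 from pooled calls, 1.478, 1.496, 1.517 and 1.532 for the median gene, 1.399, 1.405, 1.396 and 1.411 at 100000 calls, 1.36, 1.368, 1.358 and 1.376 with the left-out families, 1.458, 1.44, 1.455 and 1.441 after subtraction of the 1st percentile, and 1.231, 1.226, 1.235 and 1.236 against genes of 15000 to 50000 calls. With that subtraction the level was 1.562% in WT at P40, 1.482% in WT at 4 months and 2.789% in Dnmt3a mi5. The WT level at 4 months was 1.686% from pooled calls, 1.74% at 100000 calls, 1.693% with the left-out families and 1.725% without X-like genes, and the Dnmt3a mi5 level 2.999%, 3.105% and, for the median gene, 3.098% (pooled, 100000 calls). The cause of these moves was not tested.

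Signs turned in genes near 0, none past the threshold. With the 1st percentile subtracted the log2 odds ratios were Skint5 -0.0733, Skint6 -0.0682, Sp140 -0.0686 and Zfp982 -0.0428 at P40, and Sfi1 -0.0599 and Zfp982 -0.104 at 4 months. Without 1 library the ranges at P40 were Sfi1 -0.0437 to 0.0119, Skint5 -0.0652 to 0.148, Skint6 -0.0326 to 0.13 and Sp140 -0.0106 to 0.0917. At 4 months they were Sfi1 -0.00673 to 0.0901, Skint5 -0.142 to 0.00275 and Zfp982 -0.0759 to 0.131. With the 8 libraries Sfi1 was at 0.0131 at P40 and Zfp982 at -0.0917 at 4 months. Relative to the shift, centred limma gave Fhit 0.012, Itpr2 0.00341 and Npas3 0.00986 at P40, where the offset model was below 0.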
